A study of Mus musculus with 2 samples.

Results

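The genes described here are the 10 mouse genes for the transcriptional coactivators YAP (Yap1) and TAZ (Wwtr1), the 4 TEAD transcription factors (Tead1, Tead2, Tead3 and Tead4) and 4 target genes of these factors (Ctgf, Cyr61, Ankrd1 and Amotl2). They were taken by name from the protein-coding genes of the NCBIM37 (mm9) annotation, in which all 10 were found among 22350 on the autosomes and X. Measurements came from 2 libraries of chromatin immunoprecipitation followed by sequencing (ChIP-seq), which count DNA fragments recovered with an antibody from fixed, sheared chromatin. In 1 library the M2 antibody recognised the FLAG epitope tag, and in the other normal mouse IgG served as the background control. Both libraries came from untreated 3T3 mouse embryonic fibroblasts of 1 genotype, in which the cyclin D1 gene was knocked out (CCND1-/-) and FLAG-tagged cyclin D1 was stably expressed from a retroviral MSCV vector (Flag-CCND1). The only cyclin D1 in these cells is thus expressed from a viral vector. The sources used here do not say whether the cells were 1 clone. The comparison asks where cyclin D1, a G1 cyclin and partner of the kinases CDK4 and CDK6, is recovered on chromatin.

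YAP and TAZ do not bind DNA by themselves and are brought to promoters and enhancers by TEAD factors, which recognise the letters GGAATG. Kinases of the Hippo pathway phosphorylate YAP and TAZ and keep them in the cytoplasm, so that the coactivators act mainly in spread, growing cells such as cultured fibroblasts. Ctgf and Cyr61 encode secreted matricellular proteins that are also induced within minutes by serum, Ankrd1 encodes an ankyrin repeat protein induced by mechanical stress, and Amotl2 encodes an angiomotin family protein that binds and restrains YAP.

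Mapped tags numbered 9259840 with anti-FLAG and 9312346 with IgG, each tag being 1 sequenced fragment end. Each antibody had a single library, so no replicate check exists. Each test below compares the tags of these 2 libraries and not the antibodies in general, and all intervals are 95% intervals that cover counting error only. As a check of the genotype, introns 1 to 3 of Ccnd1 held 2 anti-FLAG and 2 IgG tags, against 17.4 expected for anti-FLAG at its genome-wide mean. Cell type markers could not be checked, since the data hold no expression values. The libraries covered GC-rich DNA differently. In windows over 10 kb from every transcription start site (TSS) the ratio of anti-FLAG to scaled IgG tags was 0.955 at 40 to 42% GC and 2.18 at 60 to 62% GC. The windows of 1 kb either side of the TSSs of the 10 genes had a median GC content of 56.8%, so ratios are given as measured and after correction for GC.

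TEAD letters were common directly upstream of these genes, and are shown first because the family's own factors recognise them. In the 250 bp upstream of the TSS, GGAATG on either strand was found in 8 of the 10 genes, with 11 matches in all, against 11.4% of 22345 protein-coding promoters. The 4 target genes were listed as targets of these factors, so this count is not independent of how the list was made. Ankrd1 had 2 matches, while Tead2 and Tead4 had none in this window. The matches of genes other than Ctgf are printed below from the strand that reads GGAATG, 5′ to 3′, with 10 bases on either side, in build NCBIM37, and the capitals mark the match.
Yap1, chr9:8004722-8004747, minus strand: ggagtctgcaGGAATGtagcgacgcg
Wwtr1, chr3:57379953-57379978, minus strand: taaactcaaaGGAATGcagataggcg
Tead1, chr7:119822626-119822651, minus strand: ccggatactaGGAATGccgggtgtgc
Tead3, chr17:28487917-28487942, minus strand: cgacgagcgaGGAATGgggtgcgcgg
Cyr61, chr3:145313037-145313062, plus strand: aaacatctcaGGAATGttggttggcg
Ankrd1, chr19:36194529-36194554, minus strand: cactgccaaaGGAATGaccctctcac
Ankrd1, chr19:36194442-36194467, minus strand: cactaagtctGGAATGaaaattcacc
Amotl2, chr9:102618928-102618953, plus strand: atgggactgaGGAATGcacgctctaa
Both factor genes and target genes thus carried the letters, and the printed matches begin 64 bp (Amotl2) to 210 bp (Ankrd1) upstream of the annotated 5′ end. For Amotl2, RefSeq places the start 1132 bp downstream of that end, so its match lies further from the RefSeq start. These matches are a description of sequence and were not measured as binding sites.

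The 3 genes of the family at whose TSS anti-FLAG tags passed the test were Ctgf, Cyr61 and Wwtr1, and the upstream sequences of Cyr61 and Wwtr1 are therefore shown in full. They are the 250 bp before the TSS, read in the direction of transcription. Capitals mark matches to the letters searched, on either strand: the TEAD letters GGAATG, the CRE letters TGACG, the GC box GGGCGG, the CCAAT box CCAAT, the TATA box TATAAA, the AP-1 letters TGANTCA, the E-box CACGTG and the CArG box, the binding sequence of serum response factor. The CRE letters are only part of a full CRE site.
Cyr61, chr3:145312950-145313199, minus strand: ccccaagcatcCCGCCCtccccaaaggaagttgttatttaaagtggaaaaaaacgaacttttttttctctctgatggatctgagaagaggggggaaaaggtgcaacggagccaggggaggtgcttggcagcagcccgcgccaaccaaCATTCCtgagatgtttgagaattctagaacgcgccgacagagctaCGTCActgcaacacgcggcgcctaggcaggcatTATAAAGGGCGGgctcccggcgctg
Wwtr1, chr3:57379833-57380082, minus strand: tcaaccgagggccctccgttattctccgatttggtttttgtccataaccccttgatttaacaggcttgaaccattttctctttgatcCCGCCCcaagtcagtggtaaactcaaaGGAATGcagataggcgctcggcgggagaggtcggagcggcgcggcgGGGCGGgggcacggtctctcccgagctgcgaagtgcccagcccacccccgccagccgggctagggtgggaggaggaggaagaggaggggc
The Cyr61 sequence had 1 TEAD match, 1 match to the CRE letters, 2 GC boxes and a TATA box that directly adjoins a GC box. The Wwtr1 sequence had 1 TEAD match and 2 GC boxes and was richer in GC, at 61.6% against 54.8% for Cyr61. Of all promoters, 19.4% held the CRE letters, 39.6% the GC box, 35.0% the CCAAT box, 12.3% the TATA box, 6.01% the AP-1 letters, 6.52% the E-box and 1.34% the CArG box. Of the 10 genes, 2 held the CRE letters, 7 the GC box, 3 the CCAAT box, 2 the TATA box, 0 the AP-1 letters, 1 the E-box and 0 the CArG box.

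Within 1 kb of the TSS, anti-FLAG tags were higher at Ctgf, Cyr61 and Wwtr1, and the other members that could be tested did not pass. Of the 10 genes, 8 had at least 20 tags in both libraries together and were tested, and 3 of them were higher and 0 lower (exact 2-sided binomial test with p adjusted over all tested genes by Benjamini-Hochberg, threshold 0.05). Over all 10939 tested genes 29.7% were higher and 0.0914% lower, so that 3 of 8 was close to the background. The median log2 ratio, with 1 tag added to each count, was 1.17 over the 10 genes, against 0.59 over all protein-coding genes, tested or not. Over the 8 tested ones it was 0.72, against 0.88 over all tested genes. After the GC correction 0 of the 8 passed, with 1 at an unadjusted exact p under 0.05, and 1.19% of all tested genes were higher. The corrected median of the 8 was -0.0074, against 0.39 over all tested genes.

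**Figure D1:**
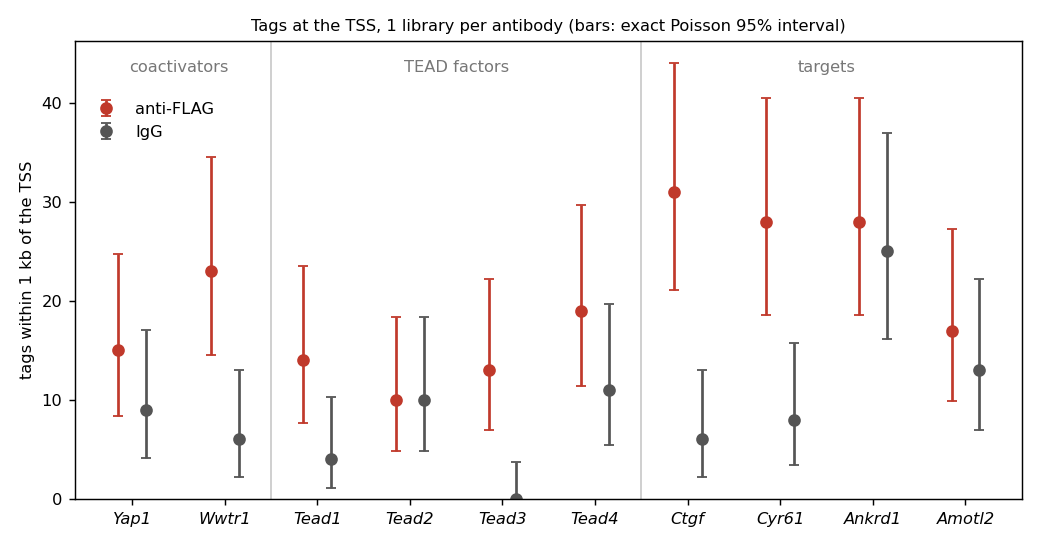
Tags within 1 kb of the TSS of each gene in the anti-FLAG library (red, left) and the IgG library (grey, right), with exact Poisson 95% intervals and 1 library per antibody. At Wwtr1, Ctgf and Cyr61 the intervals of the libraries do not overlap, at 23 against 6, 31 against 6 and 28 against 8 tags, and at Tead3, with 13 against 0 tags, they do not overlap either.

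Of the coactivator genes, Wwtr1 passed the test and Yap1 did not. Wwtr1 (ENSMUSG00000027803.8) spans 57259571 to 57379832 of chromosome 3, on the minus strand, and had 23 anti-FLAG tags and 6 IgG tags, a ratio of 3.86 after scaling to library totals (95% exact interval 1.53 to 11.6, adjusted exact p = 0.0108). Its window had 61.6% GC. From the GC of the parts of this window, a ratio of 2.29 was expected by comparison with windows far from any TSS. With this correction the ratio was 1.69 (0.668 to 5.07, adjusted exact p = 0.703). Wwtr1 also did not pass within 2.5 kb of the TSS, with 47 against 28 tags (ratio 1.69, 1.04 to 2.80, adjusted exact p = 0.136). Yap1 (ENSMUSG00000053110.7), spanning 7931999 to 8004596 of chromosome 9 on the minus strand, had 15 anti-FLAG and 9 IgG tags, a ratio of 1.68 (0.687 to 4.34, adjusted exact p = 0.339). The value for Yap1 lay below the 2.07 expected from its GC content, with a corrected ratio of 0.811 (0.333 to 2.10). The 9 IgG tags of Yap1 were all on the plus strand, against 7 anti-FLAG tags on the plus and 8 on the minus strand.

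None of the TEAD genes passed. Tead4, spanning 128174306 to 128250841 of chromosome 6 on the minus strand, had 19 anti-FLAG and 11 IgG tags (ratio 1.74, 0.786 to 4.04, adjusted exact p = 0.248). Tead2, on the plus strand of chromosome 7 from 52471123 to 52489005, had 10 tags in each library (ratio 1.01, 0.376 to 2.69, adjusted exact p = 1), and 9.03% of tested genes had a lower log2 ratio. Tead1 and Tead3 had too few tags for the test. Tead1, on the plus strand of chromosome 7 from 119822832 to 120050319, had 14 against 4, a ratio of 3.52 (1.11 to 14.7). The Tead1 window had 63.7% GC, the GC of its parts gave an expected ratio of 2.17, and the corrected ratio was 1.62 (0.510 to 6.77). Its window also holds the TSS of the long intergenic noncoding RNA (lincRNA) gene 2310014F06Rik, 740 bp downstream, and its tags cannot be assigned to 1 gene.

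Tead3 stood apart from the other TEAD genes by its lack of IgG tags. It spans 28468616 to 28487750 of chromosome 17, on the minus strand, and had 13 anti-FLAG tags and 0 IgG tags. The exact lower limit of its ratio was 3.07. With IgG set to a floor of 3 tags the ratio was 4.36, a value that depends on the floor chosen. Its window was the richest in GC of the 10, at 68.5%. From the GC of its parts a ratio of 3.21 was expected, and the lower limit after correction was 0.954. Parts richer than the last GC stratum, 66 to 68% with only 294 windows, were given the value of that stratum. With the minimum lowered to 10 tags Tead3 passed (adjusted exact p = 0.0037), but within 2.5 kb it had 22 against 12 tags (ratio 1.84, 0.874 to 4.09) and did not pass (adjusted exact p = 0.264). The IgG count also depended on the start used. At the annotated starts 205 and 459 bp downstream, both also RefSeq starts, Tead3 had 14 against 1 and 13 against 3 tags. Placing Tead3 at the floor left the median of the 10 genes at 1.17. This check could not move the median, because Tead3 stayed among the higher ratios of the 10 even at the floor.

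At annotated 5′ ends the target genes divided into the secreted CCN proteins Ctgf and Cyr61, which passed, and Ankrd1 and Amotl2, which did not. For Amotl2 this depended on the start used. At its annotated start 996 bp downstream it had 33 against 11 tags. It passed when all genes were taken at the start with most tags (adjusted exact p = 0.0080). Ctgf (ENSMUSG00000019997.4), on the plus strand of chromosome 10 from 24315248 to 24318489, had 31 anti-FLAG and 6 IgG tags, a ratio of 5.20 (2.14 to 15.2, adjusted exact p = 9.58e-04). Among tested genes 96.6% had a lower log2 ratio. The Ctgf window had 51.6% GC, and the GC of its parts gave an expected ratio of 1.40. With the GC correction Ctgf had a ratio of 3.72 (1.53 to 10.9), which did not pass (adjusted exact p = 0.0735), while 98.0% of tested genes had a lower corrected value. Cyr61 (ENSMUSG00000028195.3), spanning 145309935 to 145312949 of chromosome 3 on the minus strand, had 28 against 8, a ratio of 3.52 (1.56 to 8.94, adjusted exact p = 0.0073). Corrected for GC, the ratio at Cyr61 was 2.15 (0.956 to 5.47, adjusted exact p = 0.361). Relative to the Cyr61 TSS, that of the lincRNA gene Gm17501 lies at -327 bp, so that tags between them cannot be assigned to 1 gene, and the TSS of the lincRNA gene Gm15270 lies 1666 bp downstream of that of Ctgf.

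At Ankrd1 and Amotl2 the intervals of the ratio around the annotated start included 1. Ankrd1 (ENSMUSG00000024803.8), spanning 36186455 to 36194334 of chromosome 19 on the minus strand, had 28 anti-FLAG and 25 IgG tags (ratio 1.13, 0.633 to 2.01, adjusted exact p = 0.772). Its anti-FLAG count equalled that of Cyr61, and its IgG count was the highest of the 10 genes. Amotl2 (ENSMUSG00000032531.8), on the plus strand of chromosome 9 from 102619002 to 102635748, had 17 against 13 at its 5′ end (ratio 1.32, 0.602 to 2.94, adjusted exact p = 0.587). With the GC correction the ratios were 0.977 for Ankrd1 (0.549 to 1.75) and 0.992 for Amotl2 (0.454 to 2.22). Both genes carry TEAD letters upstream of the annotated 5′ end, 2 matches in Ankrd1 and 1 in Amotl2.

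**Figure D2:**
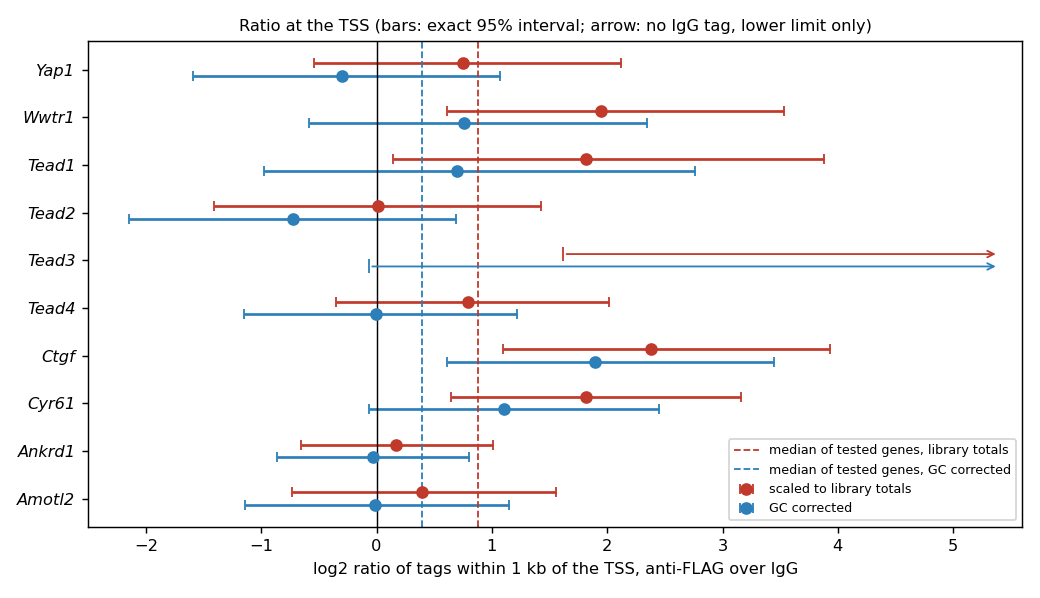
Log2 ratio of anti-FLAG to IgG tags within 1 kb of the TSS for each gene, scaled to library totals (red, upper) and after the GC correction (blue, lower), with exact 95% intervals, and dashed lines at the medians of all tested genes, 0.88 and 0.39, which were computed with 1 tag added to each count while the points were not. Arrows for Tead3 start at its lower limit. With the GC correction the interval of Ctgf, from 1.53 to 10.9 as a ratio, is the only one with a finite ratio that lies wholly above 1.

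The excess at Ctgf was also larger than in its own flanks. Tags within 1 kb of the TSS were compared with those 5 to 20 kb either side of it in the same libraries, which takes out the scale between libraries and local copy number but not GC. Ctgf had 15.5 anti-FLAG and 3.00 IgG tags per kb at the TSS, against 5.97 and 6.33 per kb in the flanks (2-sided Fisher's exact test, adjusted p = 0.0036 over all tested genes). Anti-FLAG tags at Ctgf thus stood above their flanking level while IgG tags stood below theirs. Wwtr1 also passed, with 11.5 and 3.00 tags per kb at the TSS against 4.73 and 4.50 in the flanks (adjusted Fisher's exact p = 0.0487). Cyr61 did not pass (adjusted Fisher's exact p = 0.127), and its flanks themselves had a ratio of 1.43 (1.12 to 1.84). In all 2 of the 8 tested members were higher over their flanks, against 11.2% of all tested genes.

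Cyr61 had the strongest anti-FLAG site found near any of the 10 genes, and it lay upstream of the gene and not at its TSS. Regions of anti-FLAG excess were called genome-wide from windows of 500 bp that held 10 or more anti-FLAG tags, stood 2-fold or more over the local IgG background and had a one-sided exact Poisson p below 1e-05, which gave 5928 regions. The Cyr61 region runs over 750 bp of chromosome 3 from 145314501 to 145315250, with its centre at -1927 bp from the TSS. The TSS nearest to its centre is that of the lincRNA gene Gm17501, 1600 bp away and on the opposite strand to Cyr61. Its strongest window had 20 anti-FLAG and 2 IgG tags, 9.14-fold over the local background (exact Poisson p = 3.23e-13), and over its whole length it had 22 against 4. With the GC correction it was called again at 8.96-fold (exact Poisson p = 4.64e-13) and its central 300 bp had 42.3% GC. This p takes the background as known.

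The 300 bp at the centre of the strongest Cyr61 window are shown because they hold a CArG box, which is marked in capitals, 5′ to 3′ on the strand of the gene.
Cyr61, chr3:145314851-145315150, minus strand: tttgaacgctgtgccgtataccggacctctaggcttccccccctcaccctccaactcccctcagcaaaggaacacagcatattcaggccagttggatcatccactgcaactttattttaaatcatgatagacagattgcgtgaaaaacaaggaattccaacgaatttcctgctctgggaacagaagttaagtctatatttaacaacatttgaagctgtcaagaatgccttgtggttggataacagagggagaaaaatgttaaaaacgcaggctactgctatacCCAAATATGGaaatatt
The box begins 1918 bp upstream of the TSS, and it was the only match to any of the letters searched in this stretch. A CArG box was found in 1.86% of the 5928 regions, in 300 bp at the centre of each strongest window. TEAD letters were found in 23.7% of regions and AP-1 letters in 19.4%, and these 300 bp at Cyr61 held neither.

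In all, 6 of the 10 genes had an anti-FLAG region within 20 kb of the TSS, against 20.1% of protein-coding genes, and with the GC correction 2 of the 10 had one, Cyr61 and Wwtr1, against 11%. The Ctgf region, on chromosome 10 from 24315001 to 24315500, was the one region that overlapped a TSS window. Such an overlap was seen at 1 of the 10 genes and at 7.32% of protein-coding genes, and with the GC correction at 0 of the 10 and at 2.83% of protein-coding genes. The Ctgf region had 14 anti-FLAG and 2 IgG tags, 5.03-fold over background (exact Poisson p = 1.46e-06). It was not called with the GC correction. The 500-bp stretch of most anti-FLAG tags within 1 kb of the TSS, searched in steps of 50 bp, was centred 50 bp downstream of the TSS in Ctgf, with 15 against 2 tags, and 100 bp downstream in Cyr61, with 11 against 0. In Wwtr1 it was centred at -450 bp from the TSS, with 11 against 2 tags.

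Wwtr1 had an intronic region and Amotl2 another. The Wwtr1 region, on chromosome 3 from 57376501 to 57377000, lies 3081 bp downstream of the TSS and overlaps no exon of the gene. It had 13 anti-FLAG and 2 IgG tags, 4.93-fold over background (exact Poisson p = 4.17e-06) and 5.49-fold with the GC correction, and none of the letters searched were found in its central 300 bp. The first 5 kb downstream of the Wwtr1 TSS had 59 anti-FLAG and 24 IgG tags (ratio 2.47, 1.51 to 4.16), against 33 and 35 in the 5 kb upstream (0.948, 0.571 to 1.57). The Amotl2 region, on chromosome 9 from 102626501 to 102627000, lies 7749 bp downstream of the 5′ end, with 12 against 2 tags (4.93-fold, exact Poisson p = 9.78e-06).

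The TEAD genes had regions far from their starts. A region on chromosome 7 from 119806751 to 119807250, 15831 bp upstream of the Tead1 TSS, had 16 anti-FLAG and 2 IgG tags (4.35-fold, exact Poisson p = 1.73e-06). It lies in no protein-coding gene, Tead1 has the nearest TSS, and its central 300 bp hold a TEAD match that overlaps a CCAAT box. A region on chromosome 7 from 52453751 to 52454250, at -17122 bp from the Tead2 TSS, had 12 against 2 (6.03-fold, exact Poisson p = 1.29e-06), but it lies within the gene Ccdc155, whose TSS is nearer, at 6261 bp. Yap1, Tead3, Tead4 and Ankrd1 had no region within 20 kb. With tags not shifted the Wwtr1 and Tead1 regions were not called, and with IgG scaled to background bins Ankrd1 gained one.

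**Figure D3:**
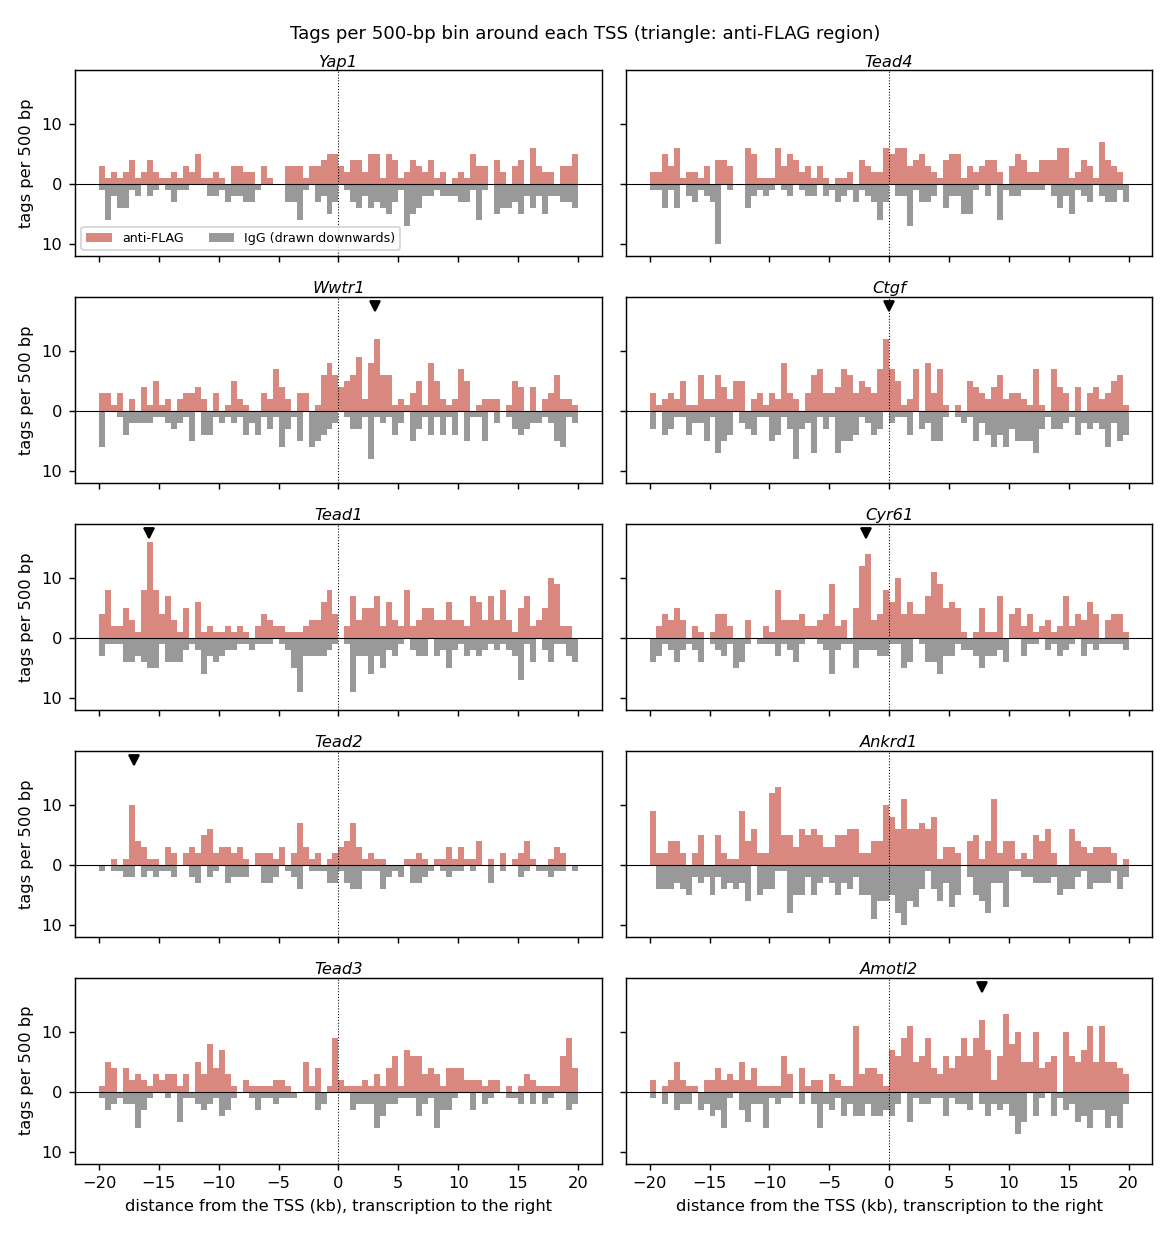
Anti-FLAG tags (red, upwards) and IgG tags (grey, downwards) per 500-bp bin from 20 kb upstream to 20 kb downstream of each TSS, with transcription to the right, a dotted line at the TSS and triangles at the centres of anti-FLAG regions. The bins of most anti-FLAG tags hold 16 tags upstream of Tead1 and 14 upstream of Cyr61, and anti-FLAG tags stand above IgG tags along the downstream side of Amotl2.

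By the rule for bins, at least 10 anti-FLAG tags and at least 4-fold over IgG with 1 tag added to each, 5 of the 10 genes had such a bin within 20 kb, against 22.6% of protein-coding genes and 0.382% of all bins around them, and these were Wwtr1, Ctgf, Cyr61, Ankrd1 and Amotl2. Cyr61 had 3 such bins, Amotl2 had 2 and the other 3 genes had 1 each. In Ankrd1 the bin lay from 9.5 to 9 kb upstream, with 13 anti-FLAG and 1 IgG tags, and no region was called there. Over the whole 40 kb the Ankrd1 locus had 322 against 304 tags, a ratio of 1.07 (0.908 to 1.25). Yap1 had the lowest top bin of the 10 loci, with at most 6 anti-FLAG tags in any bin and 192 against 193 tags over 40 kb (ratio 1.00, 0.815 to 1.23).

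At Amotl2 the anti-FLAG excess lay along the gene and not at its annotated 5′ end. Within the first 20 kb downstream there were 265 anti-FLAG and 113 IgG tags, a ratio of 2.36 (1.89 to 2.97), whereas the 20 kb upstream had 95 in each library, a ratio of 1.01 (0.749 to 1.35). In steps of 5 kb the downstream counts were 66 against 22, 74 against 21, 63 against 29 and 62 against 41, with ratios of 3.02, 3.54, 2.19 and 1.52. The ratio was highest from 5 to 10 kb, inside the gene, and lowest in the last 5 kb, which reach past the end of the gene.

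Over the body of the gene, beyond 1 kb of the TSS, Amotl2 had 213 anti-FLAG and 83 IgG tags, or 13.5 and 5.27 per kb (ratio 2.58, 1.99 to 3.37, adjusted exact p = 4.02e-12). This comparison was added after the values were seen. With the GC correction, which expected a ratio of 1.45, Amotl2 still passed (adjusted exact p = 0.0026). Tead1, over a body of 226 kb, was the other member that passed, with 1461 against 1094 tags (ratio 1.34, 1.24 to 1.45, adjusted exact p = 2.28e-11). At Tead1 the GC correction expected a ratio of 1.13, and against that ratio it still passed (adjusted exact p = 0.0065). Of the 10 genes 2 were thus higher over the body, both with and without the correction, against 11.8% of 16974 tested genes without it and 0.613% with it. Unlike the test against flanks, this comparison does not take out local copy number. The Tead1 body did not stand above its surroundings. The 20 kb upstream of Tead1 had a ratio of 1.27 (0.977 to 1.65). Its flanks 5 to 20 kb either side, which lie partly in the body, had 1.63 (1.32 to 2.02). Tead3, with 92 against 61 tags (ratio 1.52, 1.09 to 2.13), and Tead4, with 389 against 325 (1.20, 1.04 to 1.40), did not pass (adjusted exact p = 0.0672 and 0.0729).

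Amotl2 has further annotated starts inside this stretch. At the start 996 bp downstream of the 5′ end, which among its starts had the most tags of both libraries together, there were 33 anti-FLAG and 11 IgG tags within 1 kb, a ratio of 3.02 (1.49 to 6.62, adjusted exact p = 0.0080 when all genes were taken at the start with most tags). RefSeq places the Amotl2 start 1132 bp downstream of the 5′ end used here. For Cyr61, Ankrd1 and Yap1 the RefSeq start was the one used here, matched by its sequence from build GRCm38.p6. At Tead1 the start with most tags, 12380 bp downstream, had 18 against 8 tags (ratio 2.26, 0.936 to 6.02).

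**Figure D4:**
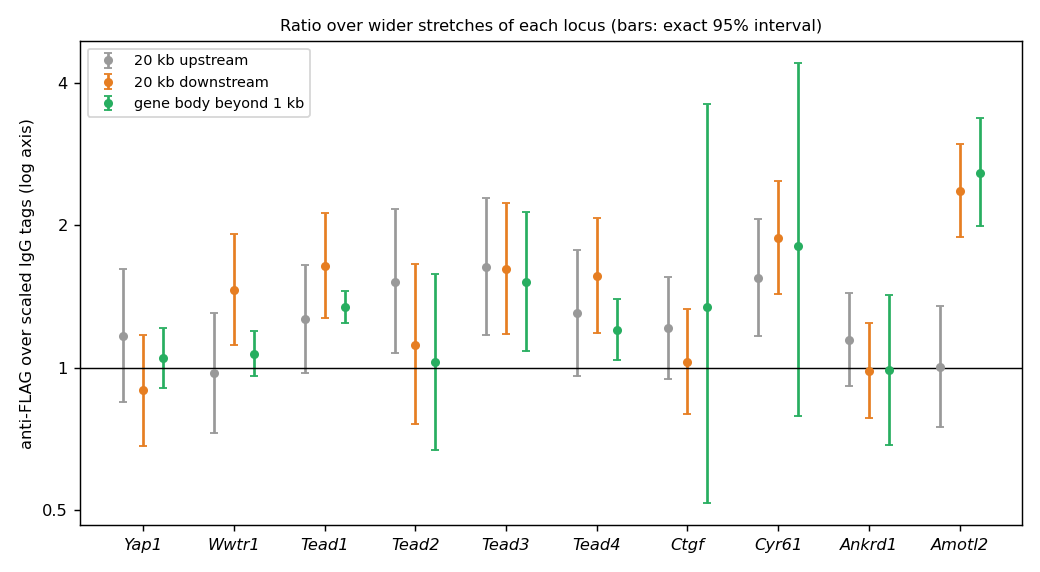
Ratio of anti-FLAG to scaled IgG tags, on a log axis, over the 20 kb upstream of each TSS (grey), the 20 kb downstream (orange) and the gene body beyond 1 kb of the TSS (green), with exact 95% intervals. At Amotl2 the downstream and body ratios, 2.36 and 2.58, stand above the upstream ratio of 1.01, while at Yap1, Ctgf and Ankrd1 the intervals of all 3 stretches include 1.

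Other genes of the Hippo pathway were read in the same test from lists that, like the members, were chosen with earlier results of these data known. Of 26 genes upstream of YAP and TAZ, 22 were tested, 10 were higher and 0 lower, with a median log2 ratio of 1.29 over those tested, against 29.7% and a median of 0.88 over all tested genes. The list holds kinases, scaffolds and adaptors that restrain YAP and TAZ, and also the LIM proteins Ajuba, Limd1 and Wtip, which inhibit the LATS kinases. Of these 3, Ajuba was higher, with 25 against 5 tags (adjusted exact p = 0.0031). Mob1a, the cofactor of the LATS kinases, had 40 anti-FLAG and 10 IgG tags (ratio 4.02, 1.98 to 9.02, adjusted exact p = 6.77e-04), and the protocadherin gene Fat4 had 23 against 3 (7.71, 2.33 to 40.1, adjusted exact p = 0.0014). Of the 4 vestigial-like TEAD cofactor genes 1 was tested, Vgll4, with 14 against 10 tags (ratio 1.41, 0.582 to 3.54, adjusted exact p = 0.539). Of 16 further YAP and TEAD target genes 10 were tested and 1 was higher, with a median log2 ratio of 0.87. This was Ccdc80, a secreted matrix protein gene, with 23 against 4 (5.78, 1.98 to 23.0, adjusted exact p = 0.0030). Tgfb2, a TGF-beta ligand gene, had 25 against 11 (2.29, 1.08 to 5.15, adjusted exact p = 0.0594). With the GC correction 0 genes of these 3 lists passed, and the smallest adjusted exact p was that of Mob1a, at 0.0593.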

How the data were processed

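The 2 libraries were grouped by the antibody in the labels. The deposited files list 1 mapped tag per line with its position and strand, and their score column holds the constant 512 and was not used. Aligner, build and read filters: not given in the sources used here. Tags were 36 bp long, 0 shared position and strand within a library, and all but 4 anti-FLAG and 2 IgG tags lay within the chromosome lengths of NCBIM37, whose annotation was used. The members and lists were chosen with earlier results of these data known.

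Tags on the 19 autosomes and X were shifted 78 bp downstream, and the IgG counts were multiplied by 0.994 to equalise library totals. The TSS was the annotated 5′ end of the gene. Genes with at least 20 tags within 1 kb were tested with the 2-sided exact binomial test, and the TSS against its flanks with Fisher's exact test, each with Benjamini-Hochberg adjustment over all tested genes. For log2 ratios 1 tag was added to both counts. A floor of 3 IgG tags was used only for the ratio of Tead3 without an added tag and for a check of the median. Region background was the maximum of 4 IgG values, from the window itself, the surrounding 5 kb, the surrounding 10 kb and the whole genome. The GC correction divided by the anti-FLAG to IgG ratio found, in strata of 2 GC points, in windows that lay more than 10 kb away from any TSS. For a TSS window the expected ratio pooled the strata of its 4 equal parts, so it can differ from that of the stratum of the whole window. For a gene body it pooled the strata of its 500-bp windows. All 10 members were named, and 1 upstream sequence is not reported here. Matplotlib 3.10.9, SciPy 1.17.1, NumPy 2.4.6 and Python 3.11.15 were used, and the procedures were tested on simulated data. Alternatives varied the window, tag minimum, scaling, shift, added tag, TSS, flanks and thresholds.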

Additional observations from a re-analysis of the deposited data

How the results depend on the processing

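The count of members higher at the TSS, 3, was 1 with 500 bp either side, where 2 members had enough tags to be tested, 0 with the GC correction and 0 with both, the last chosen after seeing the data. Over all tested genes the 3250 higher, 29.7% of those tested, became 1874, 130 and 236 in these settings, which were 62.3%, 1.19% and 7.84% of the genes then tested, and 2120 or 10.4% with 2.5 kb either side. The member count was 2 with 2.5 kb either side. It was 4 with at least 10 tags, where 16.6% of all tested genes were higher, and 4 with at least 1 tag, against 12.2%. With the annotated start of most tags it was also 4, against 28.7%. The count over flanks was 2, against 11.2% of all tested genes. It was 1 with flanks of 2 to 10 kb, against 9.66%, and 1 with 500 bp, against 39.4%. With 2.5 kb it was 1, where the 1224 genes called became 203 or 0.999%. With at least 10 tags it was also 1, against 4.92%. The members with a region within 20 kb, 6, numbered 1 at a Poisson p under 1e-07, 1 within 1 kb and 2 with the GC correction, and 4 with tags not shifted and 7 with IgG scaled to background bins, while the 4503 genes became 2053, 1636, 2466, 4230 and 5383. The members with a 4-fold bin, 5, numbered 1 at 8-fold, where the 5051 genes became 1597, and 3 with tags not shifted, where they became 4823. Over the gene body 2 members became 5 with IgG scaled to background bins, where 1996 genes became 3904, against 104 genes with the GC correction. That scaling moved the median log2 ratio of all tested genes to 1.00, against 0.88. The log2 ratio changed sign with the GC correction at Yap1 (-0.28), Tead2 (-0.67), Tead4 (-0.0041), Ankrd1 (-0.033) and Amotl2 (-0.011), with 2.5 kb at Ankrd1 (-0.17), and with the GC correction and 500 bp at Tead2 (-0.56) and Amotl2 (-0.064). Beyond the numbers of genes and tags that could be tested, the cause was not tested. No paired analysis was possible because each antibody had 1 library, and for the same reason no library could be left out. Members with under 20 tags limit what this depth can show.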
